A study of Mus musculus with 12 samples.

Results

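DNA methylation in the oral soft tissue of mice given DBP together with a chemopreventive agent was compared with that of mice given the vehicle alone. DBP (dibenzo[def,p]chrysene) is a polycyclic aromatic hydrocarbon of tobacco smoke that forms bulky DNA adducts and oral tumours in mice. The comparison holds 6 of the 12 samples of the series, chosen by their labels: 3 of the group DBP+chemopreventive agent (here DBP+agent) and 3 vehicle controls (DMSO). All came from female B6C3F1/J mice, a first-generation cross of 2 inbred strains, fed AIN-93M diet. The age given is 8 weeks. The study describes a quarantine and then the treatment of mice of this age, so they were older when tissue was taken. The DBP schedule ran for 5 weeks with 3 doses of 24 nmol in each, applied topically in the mouth. Tissue was taken 48 h after it ended. The labels do not name the agent or give its dose, route or schedule, and DMSO mice received neither DBP nor the agent, so the effects of DBP and of the agent cannot be told apart within this comparison. The tissue combined buccal mucosa, floor of the mouth and tissue attached to the hard palate, a mixture of epithelium, muscle, gland, vessels and immune cells. Whether a sample is 1 mouse or several is not stated, so the p-values over samples measure the spread between these samples. At the sites the study lists for DBP against DMSO, the files as labelled run in the opposite direction (given with those sites). Methylated calls made up 40.8% and 41.3% in DMSO samples 2 and 3 and 36.7%, 34.9% and 34.0% in the DBP samples. The study's sample summary lists these shares under the same labels, so for these samples the labels match. DMSO sample 1 stood at 32.9%, not at the share listed there. The count of methylated CpGs listed there for this control does, however, make up 32.9% of its calls. Why the direction at the sites differs was not tested. DMSO here therefore means the samples labelled as controls.

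ERRBS (enhanced reduced representation bisulfite sequencing) cuts DNA with MspI at CCGG and reads the fragment ends after bisulfite, which converts unmethylated cytosine. In mammals methylation sits mainly on CpG dinucleotides: most scattered CpGs are highly methylated, CpG-rich promoters are mostly free of it, and imprinted genes carry it on 1 parental copy. Cell types differ in methylation at their own regulatory regions, so a value from mixed tissue is an average over cells. A change in the share of a cell type and a change within cells cannot be told apart here.

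The files gave methylated and unmethylated reads for each CpG cytosine of each strand, called a position below. The DMSO libraries held 7774032, 5242017 and 3287367 CpG calls and the DBP+agent libraries 39615620, 26953761 and 16908728, a 5.12-fold difference in the mean, so depth is confounded with the group. Of 2731974 autosomal positions read in any of the 6 samples, 62649 had 10 or more reads in all of them and are called shared. The median reads per shared position were 28, 25 and 16 in DMSO and 107, 79 and 61 in DBP+agent. To compare levels at equal depth, 10 reads were drawn at random per position and sample. Within each group no library repeated the counts of another. Identical counts stood at 1.28% to 2.10% of shared positions between DMSO libraries and at 0.152% to 0.441% between DBP+agent libraries. At unadjusted p under 0.05, 6.64% to 9.67% of shared positions differed between DMSO libraries and 26.7% to 28.6% between the deeper DBP+agent libraries. Pairs across groups were not compared in this way.

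The mean methylation of the tissue did not separate the groups. At equal depth it was 35.1%, 34.9% and 34.7% in the 3 DMSO samples and 36.2%, 34.9% and 34.6% in the 3 DBP+agent samples. The group means were 34.9% ± 0.220 and 35.2% ± 0.856 (SD, n = 3 each). The ranges overlapped, and the difference of 0.324 points was smaller than the spread within DBP+agent (exact permutation test, two-sided, p = 0.9; the smallest p that 3 against 3 allows is 0.1). Without the first DBP+agent sample the difference was -0.162 points.

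The share of methylated calls over all positions of a library compares different sets of positions in each library. It was 32.9%, 40.8% and 41.3% in DMSO and 30.7%, 31.98% and 35.5% in DBP+agent, a difference of -5.56 points (exact permutation test, p = 0.2). DMSO replicates 2 and 3 stood highest. The share of autosomal calls that fell within 1 kb of a protein-coding start, where methylation is low, moved the opposite way: it was 51.6%, 42.9% and 41.8% in DMSO and 55.1%, 52.2% and 48.2% in DBP+agent. Levels are therefore given over shared positions wherever possible.

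No class of genomic region separated the groups. Within 1 kb of a protein-coding start, which held 49.6% of shared positions, DMSO averaged 9.48% ± 0.144 and DBP+agent 9.54% ± 0.794 (SD, n = 3 each). Other exons stood at 56.6% and 57.1%, introns at 63.7% and 64.3%, and intergenic positions at 59.0% and 59.6%, in DMSO and DBP+agent respectively. The differences ran from 0.0583 to 0.640 points and none passed the test (exact permutation tests, adjusted p from 0.8 to 1.0 over the 4 classes). In every class the first DBP+agent sample was the highest of the 6.

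**Figure D1:**
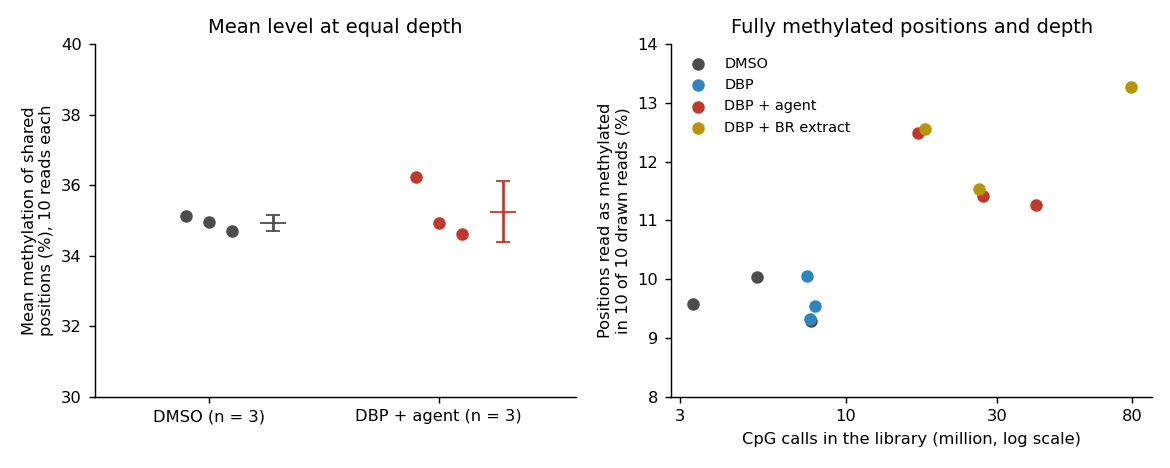
The left panel plots mean methylation (%) of the 62649 shared positions at 10 reads each for the 3 DMSO and 3 DBP+agent samples, with the mean and SD beside them. The right panel plots the share of positions (%) methylated in 10 of 10 drawn reads against the number of CpG calls on a log axis for all 12 samples, over 37218 positions. The 2 groups overlap on the left, and on the right the DMSO and DBP libraries lie below all DBP+agent and DBP+BR extract libraries, which are also the deeper ones.

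Although the means were close, the distribution was more polarised in DBP+agent. Positions methylated in all 10 drawn reads made up 9.89%, 11.2% and 10.49% of shared positions in DMSO and 12.5%, 12.9% and 13.9% in DBP+agent. Positions at an intermediate level of 20% to 80% made up 30.2%, 29.7% and 30.1% in DMSO and 29.5%, 27.8% and 26.3% in DBP+agent. Neither pair of ranges overlapped, and both gave the smallest p of the design (exact permutation test, p = 0.1). Positions under 20% did not separate (50.4% ± 0.231 in DMSO and 51.1% ± 1.62 in DBP+agent, SD, n = 3; exact permutation test, p = 0.5). Across the 4 groups of the series the shares fell into a low pair of groups with shallow libraries and a high pair with deep ones. Over 37218 positions with 10 or more reads in all 12 samples, fully methylated positions made up 9.29% to 10.04% in DMSO and 9.33% to 10.05% in mice given DBP alone, whose libraries held 7515975 to 7974299 calls. They made up 11.3% to 12.5% in DBP+agent and 11.5% to 13.3% in mice given DBP with an agent labelled BR extract, whose libraries held 17712547 to 78889043 calls. Within groups the share did not rise with depth throughout: in DMSO and in DBP+agent the deepest library had the lowest share. In DBP with BR extract the deepest library had the highest share, 13.3%, and in DBP alone the middle one. The treatment with the agent and the deeper sequencing cannot be told apart as sources of this difference.

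Distances between samples of different groups lay among those within groups. The mean absolute difference between 2 samples over shared positions at equal depth was 8.53 points within DMSO, 9.12 between the groups and 9.56 within DBP+agent. The third DBP+agent sample lay farthest from the rest, at 9.69 points on average, and the first DMSO sample lay nearest, at 8.68. DBP+agent samples were thus no nearer to each other than to DMSO.

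**Figure D2:**
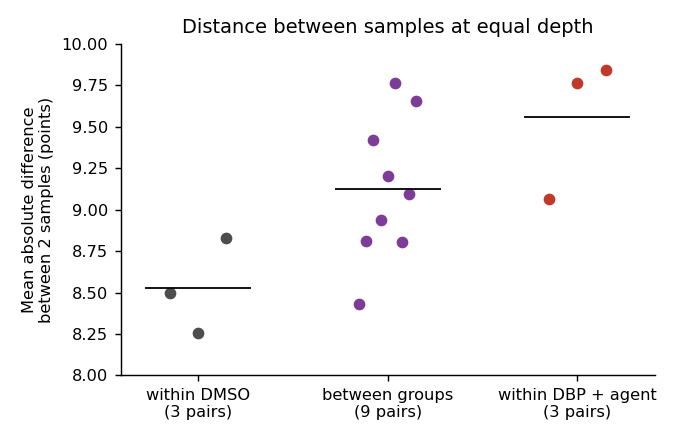
Each point is a pair of samples, and the axis gives the mean absolute difference in methylation (points) over 62649 shared positions at 10 reads each; lines are means. Pairs within DMSO average 8.53, pairs between the groups 9.12 and pairs within DBP+agent 9.56 points.

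Single positions were then tested with the model of the study's methods, a logistic regression of methylated and unmethylated reads on the group. It treats reads as independent, so the spread between samples does not enter. At q under 0.01 it called 366 of 62649 positions with a difference over 25 points between the pooled reads of the groups, 0.584% of those tested. In DBP+agent 174 were higher and 192 lower. With a difference over 10 points it called 1216, or 1.94%, with 686 higher and 530 lower. The count depended on single libraries: at 25 points it was 925 without the first DBP+agent sample (351 higher, 574 lower) and 591 without the second, and at 10 points it was 479 without the second DMSO sample and 2492 without the first DBP+agent sample. A minimum of 5 or 20 reads gave 723 or 39 at 25 points, and 20 reads gave 465 at 10 points. The study's own steps before the test (an upper coverage limit, coverage scaled to the highest median, strands merged) gave 553 at 25 points and 4205 at 10 points, and a q under 0.05 gave 2621 at 10 points. With 10 reads drawn per position and sample it called 2 positions, both higher. A fit that estimates the spread between samples (edgeR's quasi-likelihood test on methylated and unmethylated counts) called none of the 366, and 7 positions in all, or 0.0112%, each with a difference under 10 points. It gave 2045 positions at an unadjusted p under 0.05, or 3.26%.

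A difference over 25 points cannot arise at positions near 0% or 100% in both groups, so the place and level of the 366 positions in part follow from the threshold and are given as a description. Their level over the 6 samples was between 20% and 80% at 90.4% of them, against 25.01% of all shared positions. They lay within 1 kb of a protein-coding start in 23.8%, in other exons in 23.2%, in introns in 24.6% and between genes in 28.4%, whereas starts held 49.6% of the positions tested. The cytosine stood in a CCGG, the cut site itself, in 43.2% of them and in 31.4% of all shared positions. At 256 of the 366 the 3 DBP+agent samples all lay on 1 side of the 3 DMSO samples, as they did at 6.33% of all shared positions. The 366 were picked by a difference in these same reads, so their separation in part follows from the rule and is no test. The DBP+agent sample farthest from DMSO was the third in 47.5% of them, the second in 35.2% and the first in 17.2%. At 312 of them another shared CpG lay within 100 bp, and its mean difference had the same sign at 224 (71.8%), but the median neighbour moved by only 5.24 points. The same share was not computed for all shared positions. Neighbours on 1 fragment are read together, so 71.8% is a description without a baseline.

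The positions described next are 11 of the 12 with the smallest p in the read test among those with separated groups, at most 1 per 1 kb, so their separation is a description and not a test. Single-sample percentages carry 95% Wilson intervals that cover counting error only, since duplicate reads cannot be recognised in the counts. Coordinates are mm9. Of their sequences, 4 are shown because they mark the kinds of place involved: a start, 2 exons and a pair of neighbours lower together. The measured CpG is in capitals, on the plus strand.

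Terf1 chr1:15795756-15795817: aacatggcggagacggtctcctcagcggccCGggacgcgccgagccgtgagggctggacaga
Sirt4 chr5:115930243-115930304: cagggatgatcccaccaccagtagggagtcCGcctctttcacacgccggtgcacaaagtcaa
Slc16a11 chr11:70029058-70029119: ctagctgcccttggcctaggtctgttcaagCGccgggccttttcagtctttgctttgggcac
near Gm5146 chr17:23660185-23660246: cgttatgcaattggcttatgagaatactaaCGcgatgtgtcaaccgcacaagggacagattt

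The position nearest to a start lay 41 bp inside Terf1, whose protein binds telomeric repeats in the shelterin complex. It was methylated in 50.0%, 42.6% and 44.0% of reads in DMSO and in 15.5%, 20.5% and 13.5% in DBP+agent, from 25 to 161 reads. DMSO stood at 45.5% ± 3.95 and DBP+agent at 16.5% ± 3.57 (SD, n = 3), the tightest pair of groups among the 12 by their SDs. The read test gave q = 1.52e-06 and edgeR an unadjusted p = 0.0324 with an adjusted p of 1. Its 5 shared neighbours within 100 bp differed by -0.840 to 1.37 points. The change was thus read at this single CpG, which forms the CCGG of the printed sequence, and not at the CpGs around it. In mice given DBP alone the same position stood at 39.7% ± 17.2 (SD, n = 3).

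The largest difference among the 12 was in an exon of Sirt4, a mitochondrial sirtuin. The levels were 30.8%, 20% and 9.09% in DMSO, from 11 to 20 reads, and 68.9%, 79.7% and 77.8% in DBP+agent, from 18 to 74 reads. The intervals were wide at this depth, 12.7% to 57.6% for the highest DMSO sample and 54.3% to 80.5% for the lowest DBP+agent sample, so those 2 samples overlapped in counting error. No other shared position lay within 100 bp of it. The 2 samples given DBP alone that had 10 or more reads both stood at 66.7%, nearer to DBP+agent, and DBP with BR extract stood at 37.2% ± 5.82 (SD, n = 3).

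An exon of Slc16a11, of the monocarboxylate transporter family, stood at 26.9%, 23.8% and 16.7% in DMSO and at 57.3%, 60.6% and 89.8% in DBP+agent. Both of its shared neighbours were higher as well, by 4.53 and 21.4 points. DBP alone gave 32.2% ± 6.69 there and DBP with BR extract 24.5% ± 20.3 (SD, n = 3), both nearer to DMSO.

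An intergenic position 30240 bp from the start of Gm5146, a predicted gene, was lower in DBP+agent. It stood at 80%, 97.5% and 92.9% in DMSO and at 29.2%, 71.0% and 42.1% in DBP+agent. A neighbour within 100 bp was lower by 44.9 points and the other by 0.643, so a pair of nearby CpGs was lower there. DBP alone stood between the groups at 68.4% ± 1.48 (SD, n = 3).

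**Figure D3:**
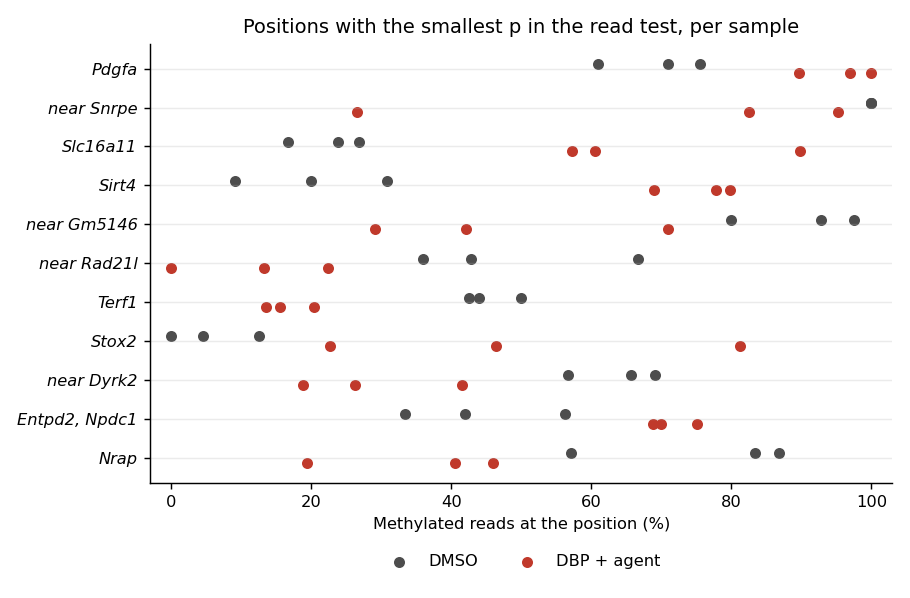
Each row is 1 of the 11 positions described, named by its gene or by the nearest protein-coding start, and each point is a sample; the axis gives the percentage of methylated reads. The groups do not overlap in any row because this was asked of the rows; the DBP+agent samples spread most near Snrpe, from 26.5% to 95.2%, and at Stox2, from 22.7% to 81.3%.

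The other positions described lay in or near genes of varied function. An intron of Pdgfa, a growth factor ligand for platelet-derived growth factor receptors, stood at 69.2% ± 7.44 in DMSO and 95.5% ± 5.33 in DBP+agent (SD, n = 3). Near the start of Stox2, a storkhead box gene, the level was 5.68% ± 6.33 in DMSO, where 1 sample had 0 of 31 reads, which allows up to 9.68%. In DBP+agent it was 50.1% ± 29.4 (SD, n = 3), a spread that exceeds the distance between the nearest samples of the groups. A position shared by the genes Entpd2 and Npdc1 stood at 43.9% and 71.3%. The lower ones were upstream of Rad21l, a meiotic cohesin gene (48.5% and 11.9%, with 0 of 45 reads in the third DBP+agent sample, which allows up to 6.67%), and far from Dyrk2, a kinase gene (63.8% and 28.9%). An exon of Nrap, a gene of myofibril assembly, stood at 75.8% and 35.3%. Near Snrpe, of the spliceosome core, all DMSO reads were methylated and DBP+agent samples ran from 26.5% to 95.2%. By edgeR all 12 had an adjusted p of 1.

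The 7 positions that edgeR called were of another kind. All were higher in DBP+agent, by 1.94 to 6.39 points, and all had 314 to 14521 reads, in each of the 6 samples more than that sample's upper coverage limit of the study's pipeline, which was 181 to 428 reads. With that limit applied, a choice made after the data were seen, edgeR called 0 of 61741 positions. Of the 7, 5 lay between chr17:39982031 and chr17:39982052, in no gene of the annotation used here. The stretch is printed with the CpG of the smallest p in capitals.

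chr17:39982010-39982071: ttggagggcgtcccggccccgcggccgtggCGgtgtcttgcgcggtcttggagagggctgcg

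At that CpG 1.98%, 1.70% and 2.55% of 2531, 647 and 314 reads were methylated in DMSO and 5.53%, 8.03% and 7.15% of 12649, 7729 and 4041 reads in DBP+agent (edgeR adjusted p = 1.23e-11). DBP alone stood at 2.03% ± 0.261 and DBP with BR extract at 6.70% ± 2.25 (SD, n = 3). The high values thus belonged to the 2 groups with deep libraries and the low ones to the 2 groups with shallow libraries. The same order held at chr4:72204502 (90.6% in DMSO, 90.7% in DBP, 94.9% in DBP+agent and 94.2% in DBP with BR extract) and at chr2:98506661 (93.5%, 94.0%, 95.5% and 95.2%). Treatment and library depth cannot be told apart at these positions.

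Windows of 1 kb gather more reads per feature. Of 31785 autosomal windows with 20 or more reads in every sample, the read test called 953 at q under 0.01 and over 10 points (3.0%), 494 higher and 459 lower. The count was 584 without the second DMSO sample and 1496 without the first DBP+agent sample, and 280 with a minimum of 50 reads. The groups were separated at 501 of the 953 and at 10.5% of all windows tested. The 953 were picked by a difference in these same reads, so their separation in part follows from the rule. edgeR called 0 windows (0.0%) at an adjusted p under 0.05, and limma on log2 ratios of methylated over unmethylated reads also called 0. At an unadjusted p under 0.05 edgeR gave 1296 windows (4.08%) and limma 2175 (6.84%).

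The windows named had the smallest edgeR p among those with separated groups, a difference over 10 points and 3 or more positions with a read in all samples. The best covered was an exon of Barx1, a homeobox factor of jaw and stomach mesenchyme, with 25 such positions. Its methylation was 7.34%, 9.80% and 10.2% in DMSO, from 137 to 395 reads, and 19.3%, 21.4% and 19.7% in DBP+agent, from 745 to 2231 reads. The groups did not overlap and each was tight, at 9.12% ± 1.55 and 20.1% ± 1.10 (SD, n = 3). On the scale of the fitted log2 ratio the difference was 1.36 ± 0.377 (SE), and edgeR's adjusted p was 1. The mean of its 4 shared positions, each weighted equally, was 6.28% ± 4.32 in DMSO and 22.6% ± 6.18 in DBP+agent (SD, n = 3). All 4 were higher, by 8.88 to 17.7 points. At the same 4 positions DBP alone gave 9.55% ± 3.23 and DBP with BR extract 5.21% ± 5.83 (SD, n = 3), both nearer to DMSO. They are the CpGs in capitals in this stretch.

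Barx1 chr13:48761272-48761338: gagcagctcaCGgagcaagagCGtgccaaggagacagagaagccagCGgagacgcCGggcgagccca

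An intronic window of Kcnab2, a potassium channel subunit, with 3 shared positions, was lower. It stood at 86.7%, 91.8% and 86.4% in DMSO and at 68.4%, 68.2% and 66.8% in DBP+agent, and those 3 positions, in capitals here, were all lower, by 17.2 to 24.4 points.

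Kcnab2 chr4:151811049-151811113: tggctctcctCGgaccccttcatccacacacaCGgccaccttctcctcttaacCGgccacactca

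DBP alone stood at 74.3% ± 3.15 and DBP with BR extract at 72.5% ± 9.24 in this window (SD, n = 3), between the groups or near DBP+agent. The unadjusted edgeR p was 0.00139 and the adjusted p was 1.

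Among the other windows, higher ones lay far upstream of Hnf4g (67.3% and 94.0%), near Vav2 (2.90% and 14.4%), far from Synm (8.95% and 27.4%), in Otog (81.5% and 96.1%), in Map2k7, a kinase of the JNK pathway (83.8% and 97.9%), and on chromosome 18 far from any coding start (83.4% and 95.7%). Lower ones lay at the start of Zfp579, a zinc finger gene (37.6% and 9.19%), near Slc5a11 (71.5% and 35.6%), and in Srcin1, an inhibitor of Src (37.8% and 12.99%). Each pair gives the DMSO and DBP+agent means. With shared positions weighted equally, an alternative added after the data were seen, the window near Vav2 had a difference of 3.05 points, and the window near Synm was not separated (15.4 points). Those of Srcin1, Map2k7 and chromosome 18 were separated, as were Zfp579 and Otog, each on 1 shared position. The windows near Hnf4g and Slc5a11 held no shared position, and all 12 had an adjusted p of 1 by edgeR.

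Promoters, taken as 1 kb on either side of the starts of a protein-coding gene, could be measured for 11097 of 21410 genes. edgeR called none (0.0%), with a smallest adjusted p of 0.161, and limma called 0. Without the first DMSO sample edgeR called 37, all lower in DBP+agent. At an unadjusted p under 0.05 edgeR gave 574 promoters (5.17%), 196 higher and 378 lower, and limma 749. The groups were separated at 1148 promoters (10.3%), of which 581 were higher and 567 lower. The read test called 262 at q under 0.01 and over 10 points, 59 higher and 203 lower. The median promoter differed by -0.158 points.

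The 10 promoters with the smallest edgeR p were all lower in DBP+agent by their summed reads. Git2, which regulates small ARF GTPases, stood at 16.1%, 27.2% and 25.5% in DMSO and at 7.78%, 7.78% and 9.34% in DBP+agent. Pigq, of GPI anchor synthesis, stood at 68.7%, 87.7% and 85.0% and at 45.3%, 47.9% and 51.4%. Tcirg1, a proton pump subunit, stood at 51.1% ± 12.1 and 21.8% ± 3.80, and Rbck1, of the linear ubiquitin ligase, at 51.1% ± 9.24 and 22.8% ± 7.41 (SD, n = 3). Mybl2, a cell cycle transcription factor, stood at 34.1% ± 13.5 and 12.6% ± 5.39 (SD, n = 3). Parp8, Slc36a1, Chst3, Ctu2 and Fbxl12 completed the list, with adjusted p from 0.354 to 0.460. In all 10 the first DMSO sample was the DMSO sample nearest to DBP+agent. It is the DMSO library whose share of calls near starts, 51.6%, was like that of DBP+agent. Whether that share bears on these promoter differences was not tested.

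Where the same positions could be compared, the differences at these positions were smaller. Each rested on 3 to 6 positions and does not stand for the whole promoter. By summed reads, DMSO stood at 80.5% at Pigq, 84.0% at Slc36a1 and 60.0% at Chst3, lower than at the shared positions. Over shared positions weighted equally, Pigq stood at 95.5% in DMSO and 93.0% in DBP+agent, Slc36a1 at 90.7% and 91.6%, Chst3 at 94.6% and 94.7%, and Git2, with separated groups, at 34.96% and 30.9%. Rbck1 stood at 94.9% and 87.9% and Mybl2 at 63.7% and 50.6%, without separation. Parp8, Tcirg1, Ctu2 and Fbxl12 had no shared position. Over all 4482 promoters with 3 or more shared positions, the median difference was 0.0387 points by summed reads and 0.00328 points by equal weights. Among the 211 of these with an unadjusted edgeR p under 0.05, 57 differed by over 10 points in summed reads and 9 in equal weights. The 110 lower ones had a median of -9.30 points by summed reads and -2.22 by equal weights, and 31 of them were higher by equal weights. This comparison was added after the data were seen.

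**Figure D4:**
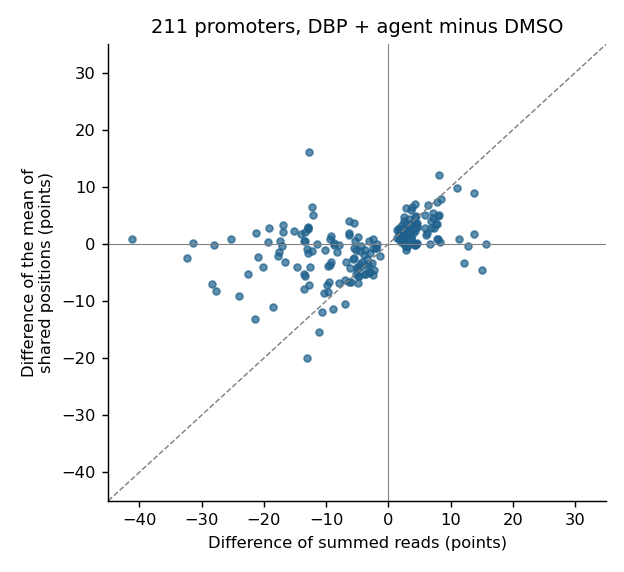
Each point is 1 of the 211 promoters with an unadjusted edgeR p under 0.05 and 3 or more shared positions; the axes give the DBP+agent minus DMSO difference (points) of the summed reads and of the mean of shared positions, and the dashed line marks equal values. Differences below -10 in summed reads mostly lie near 0 on the other axis, and the medians of the lower promoters are -9.30 and -2.22.

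At equal weights 20 of the 4482 promoters (0.446%) had separated groups and a difference over 10 points, a pair of them sharing 1 promoter. They included 2 imprinted genes with many shared positions, and these are described here after their values were seen. Igf2r, the receptor that clears insulin-like growth factor 2, is expressed in the mouse from the maternal copy and its promoter is methylated on the paternal one. Over 19 shared positions it stood at 12.2%, 12.8% and 15.2% in DMSO and at 28.6%, 18.8% and 30.1% in DBP+agent. The groups stood at 13.4% ± 1.596 and 25.9% ± 6.15 (SD, n = 3), and 18 of the 19 positions were higher, by up to 21.9 points. Neighbouring positions on 1 fragment are read together and are not independent. The summed reads of the whole promoter gave a smaller difference, 16.8% and 23.2%, with an edgeR adjusted p = 0.982. The 19 CpGs are in capitals in the stretch that follows, which holds 40 CpGs and 2 CCGG sites.

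Igf2r chr17:12962122-12962377: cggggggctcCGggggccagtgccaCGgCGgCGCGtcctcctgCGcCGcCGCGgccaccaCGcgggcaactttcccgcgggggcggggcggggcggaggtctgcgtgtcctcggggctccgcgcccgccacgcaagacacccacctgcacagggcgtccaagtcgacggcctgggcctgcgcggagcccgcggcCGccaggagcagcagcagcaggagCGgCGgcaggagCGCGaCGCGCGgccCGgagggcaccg

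Over the 9 of these positions with 10 reads in the other groups too, DBP alone gave 23.5% ± 12.7 and DBP with BR extract 35.6% ± 39.7 (SD, n = 3), a wide spread. Gnas, a complex locus whose promoters carry opposite imprints, was lower. Its 22 shared positions stood at 32.1%, 25.2% and 30.4% in DMSO and at 19.8%, 15.7% and 13.5% in DBP+agent, and 20 of them were lower. DBP alone stood at 22.2% ± 5.26 over 17 of them and DBP with BR extract at 28.3% ± 8.28 over 15 (SD, n = 3). The summed reads of all Gnas promoters differed less, at 28.3% and 25.4% (edgeR adjusted p = 0.999).

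Other members of the 20 were Ephb3, an ephrin receptor gene (51.7% ± 0.567 and 39.8% ± 5.27, SD, n = 3), Krt79, a keratin gene (88.6% and 76.3%), Neil1, of base excision repair (82.7% and 72.3%), Ascl2, a stem cell transcription factor (25.5% and 14.9%), and Mbd1, which binds methylated CpG (34.9% and 48.4%). Each rested on 3 to 5 shared positions, and the summed reads of Mbd1 ran the other way (17.6% and 13.03%).

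Gene lists chosen for the tissue and the treatment held no promoter called by edgeR. Their members were read by counts at an unadjusted p under 0.05, for which the share over all promoters was 5.17%, and by the median difference, which was -0.158 over all promoters. Among imprinted genes, 6 of 24 measured passed that threshold, 2 higher and 4 lower. The groups were separated at 8 of the 24, against 10.3% of all promoters. The 6 that passed include a pair of genes at 1 region. The 6 were Peg10 and Sgce, which share a promoter and so are 1 region measured once (18.7% ± 17.7 and 45.9% ± 3.51, SD, n = 3), and the lower Zrsr1, Dlk1, Inpp5f and Grb10. Zrsr1 was the tightest, at 43.5%, 45.2% and 41.5% in DMSO and 32.9%, 29.8% and 27.0% in DBP+agent, whereas DBP alone stood at 45.7%. At Peg10 the DMSO samples themselves ran from 4% to 38.3%, and DBP alone stood at 51.1%. Over shared positions Zrsr1 differed by -7.905 points and Grb10 by -10.5, whereas Dlk1, on 2 positions, was higher by 3.02, and the groups overlapped at all of these. By equal weights 2 of the 11 imprinted promoters with 3 or more shared positions were separated, the Igf2r and Gnas already described, against 8.59% of all 4482 such promoters, and the median over the list was 0.450 points.

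Promoters of carcinogen handling were read against the same share of 5.17% over all promoters. DBP is activated by cytochrome P450 enzymes induced through the aryl hydrocarbon receptor, and 1 of 6 measured promoters of this list passed the threshold: Por, the electron donor of these enzymes, at 2.94%, 2.29% and 2.53% in DMSO and 8.09%, 4.58% and 9.01% in DBP+agent. It held no shared position, so the same positions could not be compared, and DBP alone stood at 6.43%. In the same list Tiparp, a target of the receptor, stood at 4.36% and 2.77%. None of 15 promoters of phase II detoxification and NRF2 targets passed, and 14 of them lay under 10%. Gclc, which makes glutathione precursors, stood at 10.7% and 6.74%, and Keap1, the NRF2 inhibitor, at 2.16% and 3.98%. In repair and bypass of bulky adducts 2 of 25 passed, both lower: Lig3 (19.9% and 10.7%) and Ercc6 (13.04% and 4.27%). The single shared position of Lig3 was higher in DBP+agent, by 21.2 points, and over positions read in all 6 samples the pooled reads of Ercc6 were higher as well, by 1.30 points.

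Tumour suppression and the methylation machinery each had 1 promoter past the threshold. Of 29 tumour suppressors silenced in oral cancer 1 passed, the lower Rassf5 (12.0%, 24.1% and 32.4% in DMSO and 10.3%, 9.86% and 8.96% in DBP+agent), whose 4 shared positions differed by -20.04 points with overlapping groups. Rarb, a retinoic acid receptor, stood at 6.13% and 9.06%, but at its 7 shared positions the difference was -2.48 points. Among writers and erasers of DNA methylation 1 of 12 passed, Uhrf1, which guides maintenance methylation (2.37% and 4.41%), and Tet2, which oxidises methylcytosine, stood at 6.68% and 3.97%. None of 9 germline genes passed, and 6 of them stood above 80% over the samples, among them Brdt (91.0% and 93.8%) and Mael (84.5% and 78.5%).

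Developmental signalling and patterning genes were read next. Of 50 Wnt ligands, receptors and antagonists 4 passed, with the higher Lgr5, a stem cell receptor (7.05% and 14.1%), and the lower Lrp5 (46.2% and 19.6%), Tcf7l2 and Tcf7. Of 54 patterning homeobox factors 3 passed, the higher Msx1 (3.67% and 7.30%) and the lower Hand1 (40.9% and 23.3%) and Alx4. In Lrp5 and Msx1 the shared positions differed by -1.37 and 1.05 points.

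Among markers of the cell types in the dissection, no list had more than 2 promoters past the threshold. Of 20 squamous epithelium promoters 2 passed, both higher, Perp (7.65% and 13.99%) and Krt1 (74.9% and 89.8%), with a median of 0.465 points over the list. The mean of this list was 19.8% to 21.0% in DMSO and 21.5% to 21.7% in DBP+agent. Of 14 muscle promoters 1 passed, the higher Actn3 (4.36% and 11.1%), and Pax7 stood at 12.2% and 8.24%, with a median of -1.08. The mean of the muscle list was 19.7% to 22.03% in DMSO and 19.3% to 21.3% in DBP+agent. None of 7 immune promoters passed (median -2.76), with list means of 20.2% to 26.2% in DMSO and 19.8% to 22.4% in DBP+agent. There Bcl11b stood at 3.10%, 5% and 27.5% in DMSO and 4.48% in DBP+agent, so 1 DMSO sample set its difference, and Coro1a at 22.4% and 16.4%. None of 6 endothelial and fibroblast promoters passed (median -0.508), with list means of 14.96% to 22.99% and 17.5% to 19.7%, Pdgfra at 6.74% and 4.12% and Twist1 at 6.52% and 4.01%. With promoters of 500 bp on either side the pooled differences of Twist1 (0.156), Pax7 (0.665) and Bcl11b (0.693) turned positive. Of 8 glandular promoters 2 passed, the higher Sox9 (5.73% and 10.8%) and the lower Aqp5 (22.9% and 14.6%), with a median of 1.42 points and list means of 18.2% to 19.96% and 18.5% to 21.1%. Methylation of a marker promoter is only an indirect sign of a cell type, no RNA was measured, and the part of tissue composition in these values was not tested.

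Last, the CpGs that the study listed at the 9 genes it followed by RT-PCR were read in DBP+agent. These sites had been chosen for a difference between DBP and these same DMSO samples, so the DMSO values are not independent of the choice, and the 3 groups are given side by side without a test between their differences. By the labels, DBP samples stood above DMSO at Ppp1r21, Fgf3, C1qtnf9 and Efemp2 and below DMSO at the other genes, at every site the reverse of the direction in which the study lists it. Of the 10 sites, 2 separated DBP+agent from DMSO, against 6.33% of all shared positions on single strands. At Tbc1d4, which controls glucose transporter traffic, chr14:102008344 stood at 76.3%, 70.3% and 83.3% in DMSO and at 64.2%, 64.3% and 52.0% in DBP+agent, from 24 to 148 reads (exact permutation test, two-sided, p = 0.1). DBP alone stood at 41.0% ± 11.04 (SD, n = 3). At Ppp1r21, a phosphatase regulator, chr17:88952526 stood at 0%, 8.33% and 0% in DMSO and at 19.6%, 25.5% and 25.6% in DBP+agent (exact permutation test, p = 0.1). The counts of 0 were of 22 and 10 reads, which allow up to 13.6% and 30%, and DBP alone stood at 37.3% ± 8.05 (SD, n = 3). The second Ppp1r21 site, at chr17:88952504, stood at 44.0% ± 23.4, 59.2% ± 20.2 and 85.4% ± 12.6 in DMSO, DBP+agent and DBP (SD, n = 3).

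At Fgf3, a growth factor ligand of development, the site chr7:152014445 lies upstream of the start. It stood at 55.6%, 33.3% and 31.3% in DMSO, from 15 to 18 reads, and at 51.0%, 48.8% and 29.3% in DBP+agent, from 41 to 86 reads. The groups overlapped, and the difference of 3.00 points was far smaller than the spread (exact permutation test, p = 1.0). DBP alone stood at 75.4% ± 10.5 (SD, n = 3), and no DBP+agent sample reached the lowest DBP sample, at 68.8%. As labelled, DBP was thus above DMSO at this site, against the direction the study gives for it.

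The remaining sites overlapped between DBP+agent and DMSO. At C1qtnf9, a secreted C1q-related protein, the values were 51.1%, 52.5% and 40% in DMSO, 76.7%, 82.2% and 36.8% in DBP+agent and 88.1% ± 7.99 in DBP (SD, n = 3). At Efemp2, a matrix protein of elastic fibres, the means were 19.03% in DMSO, 42.3% in DBP+agent and 45.1% in DBP. At Ctnnb1, which encodes β-catenin, they were 40.4%, 25.9% and 12.4%. At Pkm, a glycolytic kinase, they were 57.1%, 36.4% and 21.4%, and at Vamp3, a vesicle SNARE, 60.4%, 47.7% and 25.3%. Ppp1r13l, an inhibitor of p53, spread most: its DBP+agent samples ran from 60% to 0 of 50 reads, which allows up to 6%, around a mean of 34.2%, against 53.5% in DMSO and 19.2% in DBP. None of the 8 measured promoters of these genes passed an unadjusted edgeR p of 0.05. In the annotation used here the Vamp3 site falls in Camta1 and the C1qtnf9 site in Spata13.

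**Figure D5:**
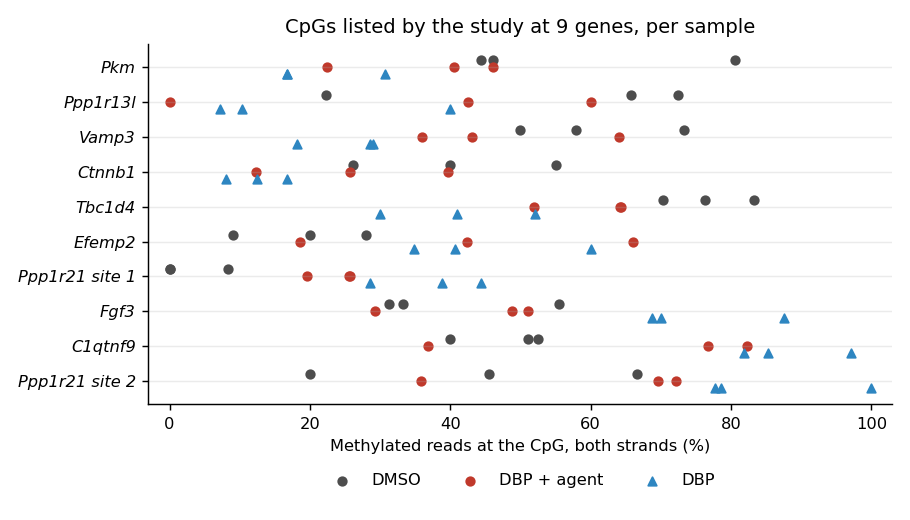
Each row is a CpG that the study listed at a gene, with both strands summed; circles are the DMSO and DBP+agent samples, triangles the samples given DBP alone, and the axis gives methylated reads (%). DBP+agent and DMSO are apart at Tbc1d4 and at the first Ppp1r21 site, and overlap at the other 8.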

How the data were processed

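ERRBS data of 12 mouse oral tissue samples in 4 groups of 3 were used, and groups and replicate numbers came from the sample titles. The authors trimmed reads (Trim Galore 0.3.3) and used Bismark 0.10.1 for alignment to mm9 and methylation calls. For each CpG cytosine they deposited counts of methylated and unmethylated reads, not normalized, and a percent column, deposited beside the counts, that was not used. Which samples shared a sequencing lane is not given in the sources used here.

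Calculations used Python 3.11.15, NumPy 2.4.6, SciPy 1.17.1 and R 4.3.3. Positions with 10 or more reads in all 6 samples were tested by logistic regression on reads with a likelihood ratio test, which needs no spread between samples, and by edgeR 4.0.16 (quasi-likelihood, Benjamini-Hochberg adjusted p under 0.05). Windows of 1000 bp and promoters with 20 or more reads per sample were tested likewise, with limma 3.58.1 on log2 ratios (1 added) as an alternative. Single values were compared by exact permutation tests. Genes came from GENCODE vM1 on mm9, and sequences from the mm9 reference. Tests were checked on simulated data. Total calls per sample set the precision, as given with the results.

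Named items were 12 positions and 12 windows by the stated rules, of which 1 position and 1 window are not reported here, the 10 promoters with the smallest edgeR p, the 2 per list with the smallest edgeR p, and the study's RT-PCR gene sites; Peg10, Sgce and others beyond these 2 are named because they passed an unadjusted threshold. The comparison, its gene lists and these rules were chosen with earlier results of these data known. Alternatives changed the coverage filter, draw, test, window, promoter and samples included. Same-numbered samples did not deviate together (r = 0.00369, 0.00540 and 0.00417), so the numbers were not taken as pairs.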

Additional observations from a re-analysis of the deposited data

How the results depend on the processing

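The DMSO medians of 16 to 28 reads leave wide intervals at single positions, and depth differed with the group, so the 2 cannot be told apart. The mean level ran from -0.162 to 0.648 points when 1 sample was left out, near starts from -0.386 to 0.378 and in introns from -0.0361 to 1.01, so these directions were not fixed. In exons it ran from 0.0286 to 0.709 and between genes from 0.166 to 0.972. Distances within DMSO, between groups and within DBP+agent were 11.2, 11.6 and 11.9 points with 5 or more reads, 7.78, 8.31 and 8.74 with 20 or more, and 6.95, 7.18 and 7.32 with all reads, in the same order each time. Positions called at 25 points numbered 723 with 5 reads and 39 with 20 reads, where 465 were called at 10 points and 5 named positions could still be measured. The study's pipeline (upper coverage limit, coverage scaled, strands merged) gave 553 and 4205, and a q under 0.05 gave 2621 at 10 points. Drawing 10 reads gave 2 at either size and 1 named position, while edgeR and an overdispersion-corrected F test gave 0 at either size and 0 named positions. With 1 sample left out, calls ran from 257 to 925 at 25 points and from 479 to 2492 at 10 points, named positions from 8 to 12, and edgeR's positions from 7 to 10 (0 with the upper limit). Windows called by the read test numbered 280 with 50 or more reads and 584 to 1496 with 1 sample left out. Of the named windows 6 could be measured with 50 reads and 6 at 500 bp, all keeping their direction, as did 12 in each fit without a sample. Promoters called numbered 262 by logistic regression on reads and 0 to 37 by edgeR with 1 sample left out, where 39 to 40 of 40 named promoters kept their direction. Promoter differences in these sentences are of reads pooled over each group, except with equal weights. With equal weights 16 of 22 did, and the differences of Chst3 (0.125), Slc36a1 (0.864), Lig3 (21.2), Dlk1 (3.02) and Rarb (-2.48) reversed. With 500 bp promoters Pax7 (0.665), Twist1 (0.156) and Bcl11b (0.693) reversed, and Bcl11b also without DMSO replicate 3 (1.22, against -3.03 with all samples and -16.1 without DMSO replicate 1). Over positions read in all 6 samples Chst3 (1.11), Slc36a1 (0.643) and Ercc6 (1.30) reversed. These causes were not tested. A replicate block, although the numbers do not pair the samples, gave 357 positions at 25 points, 1317 at 10 points, 959 windows by the read test and 0 windows or promoters by edgeR.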
